A study of Mus musculus with 10 samples.

Results

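The genes described here encode the enzymes that make reactive oxygen species on purpose, the NADPH oxidases, and those that remove them: superoxide dismutases, catalase, glutathione peroxidases, peroxiredoxins, the thioredoxin and glutathione systems, and the regulators Nfe2l2 and Keap1. A listed set of 39 genes was taken, and a gene probe was counted for a gene when its deposited gene name, or the gene behind its accession, was on the list. All 39 were found, with 65 probes, of 18955 genes with a symbol and 41174 gene probes on the array. Of these 65 probes, 64 passed the filter on dim probes, as 38629 of all gene probes did. Every one of the 39 genes was well above background on all 10 arrays, so none of them entered the test through 1 group alone. The probe that did not pass was 1 of 3 for Glrx2, and it was above background on 0 arrays.

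RNA came from whole femurs of male ICR mice aged 6 months, 1 animal per array, housed singly under a reversed light cycle. The 5 control mice walked freely in their cages. The other 5, called unloaded here, hung by the tail in a head-down tilt for 24 h, so that the hindlimbs carried no weight. The comparison asks which transcripts of the bone differ after the first day without weight bearing. The labels name no transgene, deletion or drug in either group. Suspension also brings a taped tail and a head-down posture with it, which the freely moving controls did not have, and these cannot be told apart from the loss of load. Body weights were 26.85 to 31.3 g in control and 25.53 to 29.34 g in unloaded mice.

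A phagocyte makes superoxide with an enzyme built from a membrane cytochrome, whose subunits are encoded by Cybb and Cyba, and from cytosolic subunits that join it on activation, among them the products of Ncf1 and Ncf4. Superoxide dismutases turn superoxide into hydrogen peroxide, which catalase, glutathione peroxidases and peroxiredoxins then reduce. The peroxiredoxins are recharged by thioredoxin, and glutathione peroxidases by glutathione, both at the cost of NADPH. Nrf2, the product of Nfe2l2, is held in the cytosol and marked for destruction by Keap1, and once released it switches on many of these antioxidant genes. In bone, NADPH oxidases are known above all from osteoclasts and from the neutrophils and macrophages of the marrow.

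Signals are given as log2 values after subtraction of the array's own 75th percentile, every difference is unloaded minus control on that log2 scale, and levels of different genes are not set against each other because each probe has its own brightness. Where a gene had several probes, the brightest tested one stands for it. The arrays lay on 3 slides that largely follow the groups: slide 1 held controls 1 to 4, slide 2 control 5 and unloaded animals 1 to 3, and slide 3 unloaded animals 4 and 5. Unloaded animal 5 stood apart from the rest, with a median correlation of 0.973 with the other arrays where the others had 0.986 to 0.988. The markers of osteoblasts (8 of 8 tested) and osteocytes (6 of 6) were above the filter. So were those of neutrophils (12 of 12), erythroid cells (10 of 12, with Hbb-b1 and Ahsp not matched to a tested probe) and skeletal muscle (10 of 10). Passing says little about tissue, because 38629 of 41174 gene probes passed. Averaged over each list, control signals were 4.44 for neutrophil, 3.07 for erythroid and 3.82 for skeletal muscle markers, where 0 is the array's 75th percentile. By these levels the samples held marrow and some muscle beside bone. In such bulk RNA, fewer cells of a type and less RNA per cell cannot be told apart.

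None of the 39 genes was called. At a limma adjusted p below 0.05 (Benjamini-Hochberg over 38629 probes) the count was 0 of 39, where 0.00259% of all probes, the single probe of Ddit4, was called. Adjusted p among the 39 ran from 0.218 for Cybb to 0.972 for Gpx1. At an unadjusted limma p below 0.05 there were 3 genes with higher values in unloaded bone, Cyba, Nox4 and Txnrd2, which is 7.69% of the 39 beside 10.2% of all probes. A further 5 had lower values, Cybb, Cat, Gclc, Gclm and Nfe2l2, which is 12.8% beside 5.92% of all probes. This split depended on the scaling: with arrays scaled by their median signal there were 0 higher and 6 lower, namely Cat, Cybb, Gclc, Gclm, Nfe2l2 and Prdx3. The groups did not overlap for 1 gene in the higher direction, Nox4, or 2.56% beside 1.51% of all probes. In the lower direction there were 3, Cybb, Cat and Nfe2l2, or 7.69% beside 1.65%. The count of genes without overlap moved with the processing: with another background correction (normexp) 0 genes had groups that did not overlap, with quantile normalization 1 did, Nfe2l2, and with median scaling 3 did, Cat, Cybb and Nfe2l2.

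The differences were small. As a fold change, the largest, that of Gclc, was 1.32-fold. For 30 genes the 95% interval of the difference lay within -0.5 and 0.5. There were 21 positive and 18 negative differences, with a median of 0.02 beside 0.07 over all tested probes. Of the 16 genes with more than 1 tested probe, 9 had probes of both signs. The SD between animals of 1 group had a median over the genes of 0.18 in control and 0.17 in unloaded mice.

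**Figure D1:**
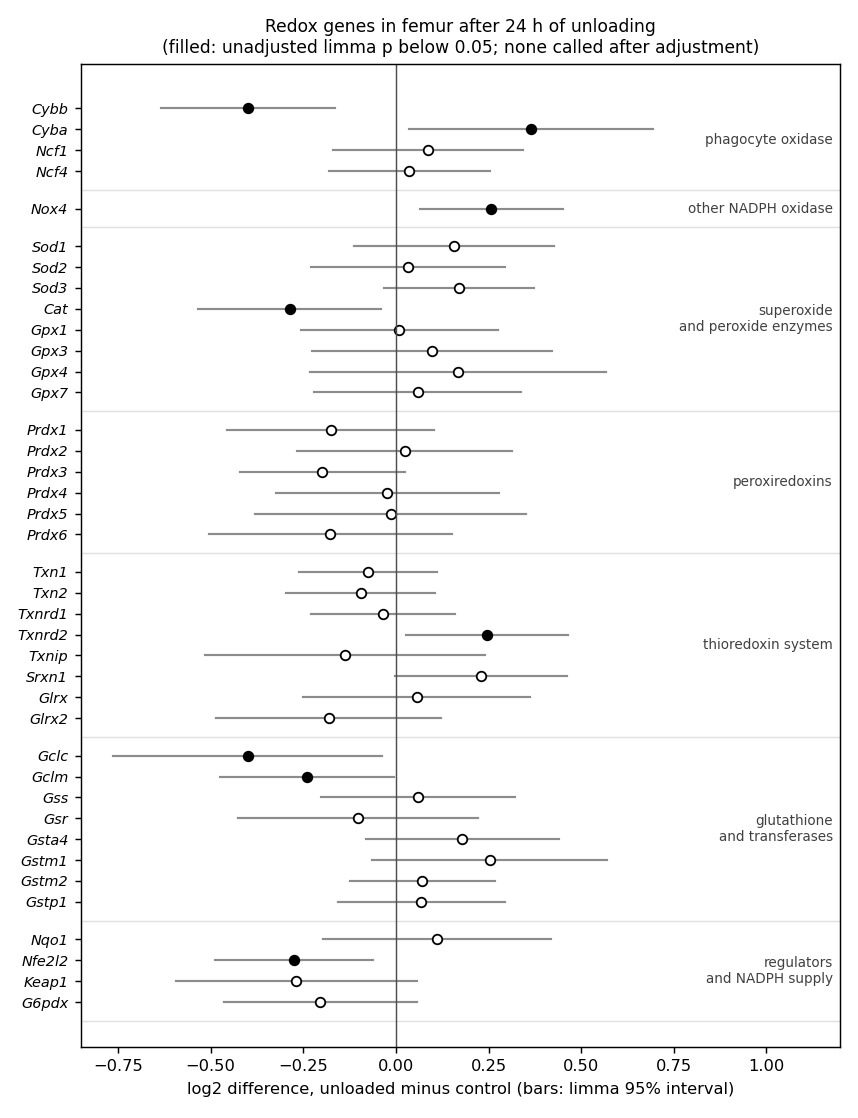
Log2 difference, unloaded minus control, of each of the 39 genes (horizontal axis), with its limma 95% interval as a bar and the genes grouped by role. The 8 filled points have an unadjusted p below 0.05, 5 of them to the left of 0 and 3 to the right; none was called after adjustment.

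Within the phagocyte oxidase the differences of the membrane subunits lay on opposite sides of 0, and neither was called. Cybb encodes gp91phox, the subunit that carries the electrons across the membrane. Its log2 signal was 2.85, 3.097, 2.82, 2.70 and 2.60 in controls 1 to 5 and 2.55, 2.40, 2.46, 2.46 and 2.20 in unloaded animals 1 to 5. All 5 unloaded animals lay below all 5 controls, with the gap narrowest between control 5 and unloaded animal 1, which share slide 2. The means were 2.81 ± 0.19 (SD, n = 5) in control and 2.42 ± 0.13 (SD, n = 5) in unloaded bone, a difference of -0.40 (SE 0.11, limma adjusted p = 0.218). The other Cybb probe had a difference of -0.23 (SE 0.0995).

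Cyba encodes p22phox, the partner that stabilises gp91phox and also Nox4 in the membrane. Cyba signals were 2.25, 2.38, 2.58, 2.33 and 3.02 in controls 1 to 5 and 2.51, 2.85, 2.97, 2.91 and 3.14 in unloaded animals 1 to 5. The groups overlapped: control 5, the only control on slide 2, lay above 4 of the unloaded animals, and control 3 above unloaded animal 1. The means of 2.51 ± 0.31 and 2.88 ± 0.23 (SD, n = 5 each) gave a difference of 0.36 (SE 0.15, limma adjusted p = 0.286). With slide as a fixed block, a fit that slide 2 alone informs, the sign turned, to -0.24 (SE 0.21), while Cybb kept its sign at -0.13 (SE 0.19).

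The log2 signal of Cyba minus that of Cybb within the same array lay at -0.60, -0.72, -0.24, -0.37 and 0.42 in controls 1 to 5. It lay at -0.04, 0.44, 0.51, 0.45 and 0.94 in unloaded animals 1 to 5. This quantity, in which any scaling of an array cancels, was chosen after the values were seen and is given with no test. Controls 1 to 4 lay below all unloaded animals, and control 5 lay among them. The mean difference was 0.76 over all arrays and -0.11 within slide 2.

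**Figure D2:**
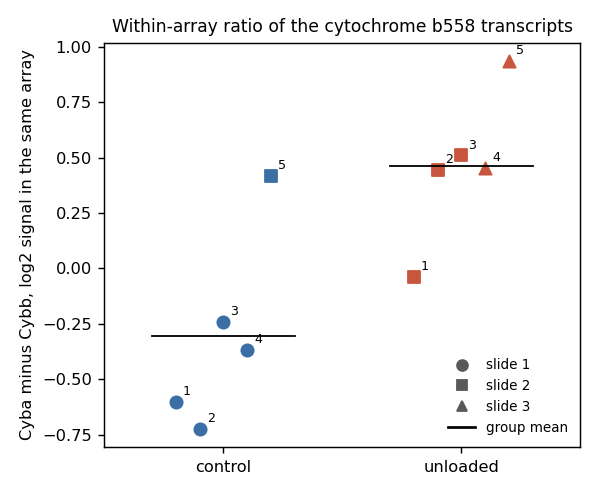
Cyba minus Cybb, as log2 signals of the same array (vertical axis), for the 5 control and 5 unloaded animals, numbered, with marker shapes for the slide and a line at each group mean. The position relative to 0 has no meaning because the probes differ in brightness; the 4 controls of slide 1 lie between -0.72 and -0.24, and control 5, on slide 2, lies at 0.42.

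The cytosolic subunits lay close to no difference. Ncf1 encodes p47phox, the organiser that brings the cytosolic complex to the membrane. Ncf1 measured 1.23, 1.52, 1.49, 1.23 and 1.58 in controls 1 to 5 and 1.46, 1.38, 1.56, 1.82 and 1.28 in unloaded animals 1 to 5. The groups overlapped over most of their range, and the difference of 0.09 (SE 0.12, limma adjusted p = 0.706) was smaller than the spread of either group. The other Ncf1 probe had a difference of -0.02. Ncf4 encodes p40phox, which binds a membrane lipid of the phagosome. Ncf4 measured 5.00, 5.25, 5.20, 4.90 and 5.36 in controls 1 to 5 and 5.15, 5.16, 5.21, 5.22 and 5.14 in unloaded animals 1 to 5. All unloaded values lay inside the range of the controls, and the difference was 0.04 (SE 0.10, limma adjusted p = 0.861).

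Over these 4 subunits the median difference was 0.06, and 0.0089 without control 4. Markers of the cells that carry this oxidase were as follows. The mean of the 12 neutrophil markers lay between 4.27 and 4.57 in controls and between 4.08 and 4.49 in unloaded animals. For the 12 monocyte and macrophage markers the ranges were 1.37 to 1.67 and 1.27 to 1.56. In both lists 7 of 12 markers had negative differences, with list medians of -0.12 and -0.09, and 0 markers were called in either. At an unadjusted limma p below 0.05, 8.33% of the neutrophil and 25% of the monocyte and macrophage markers were lower, beside 5.92% of all probes. In the higher direction it was 0% in both lists, beside 10.2%. Single markers with lower values were Csf3r, a receptor of neutrophils, by -0.48 (limma adjusted p = 0.234), and the monocyte receptors Ccr2 by -0.30 (limma adjusted p = 0.244) and Cx3cr1 by -0.97 (limma adjusted p = 0.218). The groups did not overlap for Csf3r and Ccr2. In both lists 5 of 12 markers had positive differences. Among them were the macrophage markers Cd163 by 0.34 (limma adjusted p = 0.434), Marco by 0.32 (limma adjusted p = 0.395), C1qb by 0.16 and C1qa by 0.14. Other macrophage markers were negative, among them Mrc1 by -0.27 (limma adjusted p = 0.303), Cd68 by -0.14 and Adgre1 by -0.11. The neutrophil marker S100a9 differed by 0.07. All of these markers were named after their values were seen. All 24 were tested, and their part in the values of Cybb was not tested. Rac2, the small GTPase of the active complex in blood cells, had a difference of -0.09 (limma adjusted p = 0.660). Mpo, the peroxidase of neutrophil granules, stood at 7.45 in both groups (difference -0.00098, SE 0.10).

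Nox4, an oxidase outside the phagocyte system that is active without cytosolic subunits, had higher values in unloaded bone but was not called. Its signals were -1.31, -1.27, -1.08, -1.39 and -1.17 in controls 1 to 5 and -1.02, -1.02, -0.997, -1.02 and -0.87 in unloaded animals 1 to 5. All 5 unloaded animals lay above all 5 controls, with animals 1 to 4 close together and animal 5 the highest. The difference was 0.26 (SE 0.09, limma adjusted p = 0.253), and the other Nox4 probe gave 0.26 as well. That probe was dimmer, with a control mean of -2.66 beside -1.24, and its groups overlapped. The sign held with slide as a fixed block (0.15, SE 0.17). With normexp background, median scaling or quantile normalization the groups overlapped. With median scaling (0.16) and quantile normalization (0.18) Nox4 no longer had an unadjusted limma p below 0.05.

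Among the 8 superoxide dismutases, catalase and glutathione peroxidases, 7 had positive differences and Cat alone was negative. Their median was 0.08, close to the 0.07 of all tested probes, and with arrays scaled by their median signal Sod2, Gpx1 and Gpx7 turned negative. With single animals left out the median ran from -0.0017 (without unloaded animal 2) to 0.16 (without control 3). Cat encodes catalase, the peroxisomal enzyme that splits hydrogen peroxide. Cat signals were 2.43, 2.26, 2.63, 2.40 and 2.24 in controls 1 to 5 and 2.23, 2.19, 2.16, 2.19 and 1.76 in unloaded animals 1 to 5. The groups did not overlap, but control 5 (2.237) and unloaded animal 1 (2.231), both on slide 2, were nearly equal, and unloaded animal 5 lay far below the rest. The means were 2.39 ± 0.16 and 2.11 ± 0.19 (SD, n = 5 each), a difference of -0.29 (SE 0.11, limma adjusted p = 0.277). Without unloaded animal 5 it was -0.20, and with slide as a fixed block -0.04 (SE 0.20).

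Sod3 encodes the superoxide dismutase secreted into the matrix. It measured -2.15, -2.01, -1.93, -2.08 and -1.94 in controls 1 to 5 and -1.94, -1.85, -1.94, -1.90 and -1.63 in unloaded animals 1 to 5. The groups overlapped at their edges, with unloaded animal 5 apart at the top, and the difference was 0.17 (SE 0.09, limma adjusted p = 0.364). Sod1, the cytosolic copper and zinc enzyme, measured 5.04, 5.05, 5.30, 4.88 and 5.47 in controls 1 to 5 and 5.07, 5.47, 5.20, 5.35 and 5.43 in unloaded animals 1 to 5. The overlap was wide, and the difference of 0.16 (SE 0.13, limma adjusted p = 0.5002) turned to -0.23 with slide as a fixed block. The other Sod1 probes had differences of 0.01 and -0.19. They were dimmer, with control means of -2.99 and -2.24 in that order beside 5.15.

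The remaining genes of this group differed by no more than their spread. Sod2, the manganese enzyme of mitochondria, had a difference of 0.03. Differences of the glutathione peroxidases were 0.0093 for Gpx1, the abundant cytosolic form, and 0.10 for Gpx3, the form secreted into plasma. For Gpx4, which reduces lipid peroxides in membranes, the value was 0.17, with an SD of 0.44 among the controls, the widest of the 39 genes, and for Gpx7, a form of the endoplasmic reticulum, it was 0.06. Their limma adjusted p ran from 0.629 to 0.972.

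Of the 6 peroxiredoxins, 5 had negative differences and the median was -0.10, but none had an unadjusted p below 0.05. With quantile normalization Prdx4 and Prdx5 turned positive and Prdx2 negative. Prdx3 encodes the peroxiredoxin of mitochondria. Its signals were 2.19, 2.22, 2.45, 1.97 and 2.08 in controls 1 to 5 and 2.06, 1.95, 1.86, 2.10 and 1.94 in unloaded animals 1 to 5. Controls 1 to 3 lay above all unloaded animals, and controls 4 and 5 lay among the unloaded values. The difference was -0.20 (SE 0.10, limma adjusted p = 0.342).

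Prdx1, a cytosolic peroxiredoxin under Nrf2 control, measured 2.87, 2.94, 3.23, 2.62 and 2.79 in controls 1 to 5 and 2.52, 3.01, 2.66, 2.85 and 2.53 in unloaded animals 1 to 5. The groups overlapped, and the difference was -0.18 (SE 0.13, limma adjusted p = 0.473). Prdx6, which also acts on phospholipid peroxides, measured 2.62, 2.94, 3.13, 2.70 and 2.85 in controls 1 to 5 and 2.61, 3.01, 2.59, 2.95 and 2.19 in unloaded animals 1 to 5. Its difference of -0.18 (SE 0.15, limma adjusted p = 0.534) was -0.06 without unloaded animal 5. The probes of Prdx6 disagreed, since the other 3 had positive differences of 0.06, 0.17 and 0.30, the last with a limma adjusted p of 0.283. These 3 were dimmer, with control means of -0.02, -0.89 and -2.33 in that order, beside 2.85 for the brightest probe. With the mean of all tested probes, bright and dim alike, standing for each gene, Prdx6 had a positive difference of 0.09. The median of the 6 peroxiredoxins was then 0.03. The other 3 genes had differences of 0.02 for Prdx2, the peroxiredoxin abundant in red cells, -0.02 for Prdx4, that of the endoplasmic reticulum, and -0.01 for Prdx5, found in mitochondria and peroxisomes. Dimmer probes gave 0.20 and 0.15 for Prdx2 and 0.18 for Prdx4.

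Taken as peroxidases, Cat, the 4 Gpx genes and the 6 peroxiredoxins had a median difference of -0.01, with 5 positive and 6 negative. Single animals of a group differed more than the groups did. Averaged over the 11 genes, the log2 signal was 3.07, 3.101, 3.46, 2.84 and 3.14 in controls 1 to 5 and 2.93, 3.27, 3.00, 3.22 and 2.97 in unloaded animals 1 to 5. Controls 3 and 4 were the highest and the lowest of all 10 animals, so that the controls spanned the whole range of the unloaded animals. The mean of the erythroid markers was highest in control 3 (3.52) and lowest in control 4 (2.53) as well, and lay between 2.92 and 3.39 in unloaded animals. This was not particular to erythroid cells. The mean of the neutrophil markers was also highest in control 3 (4.57), and control 4 (4.27) was the lowest of the controls. The mean of the monocyte and macrophage markers was highest in control 3 (1.67) too. The part of red cell precursors or of other cell types in the peroxidase values was not tested.

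**Figure D3:**
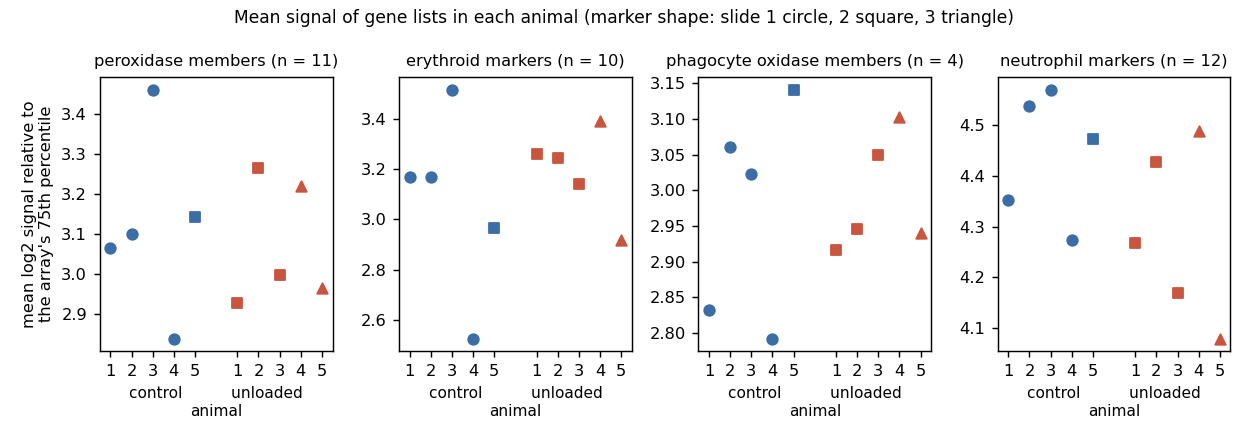
Mean log2 signal per animal (vertical axes, relative to the array's 75th percentile) of the 11 peroxidase genes, the 10 tested erythroid markers, the 4 phagocyte oxidase genes and the 12 neutrophil markers, with controls in blue, unloaded animals in red and marker shapes for the slide. Controls 3 and 4 hold the highest and the lowest peroxidase and erythroid values, and the groups overlap in each panel.

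The same controls recurred over the whole set. Control 3 had the highest control value for 21 of the 39 genes (53.8%) beside 20.5% of 18908 named genes measured on all arrays. Control 4 had the lowest control value for 23 genes (59%) beside 20.4% of named genes. Among unloaded mice, animal 5 was lowest for 16 genes (41%) beside 28% of named genes, and animal 1 was lowest for 13 (33.3%) beside 15.6%. Animal 2 was highest for 15 genes (38.5%) beside 26.3%. These shares describe single animals and carry no test.

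The thioredoxin system showed 3 positive and 5 negative differences, with a median of -0.05. Txnrd2, the thioredoxin reductase of mitochondria, measured 1.17, 0.93, 1.21, 1.04 and 1.42 in controls 1 to 5 and 1.41, 1.38, 1.47, 1.43 and 1.31 in unloaded animals 1 to 5. All unloaded animals lay above the 4 controls of slide 1, and control 5 lay among them. The difference was 0.25 (SE 0.10, limma adjusted p = 0.283). The other 2 Txnrd2 probes had differences of -0.14 and -0.02, and with slide as a fixed block the value of the brightest probe was 0.00053 (SE 0.17).

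Srxn1 encodes sulfiredoxin, which repairs over-oxidised peroxiredoxins. Srxn1 signals were 1.90, 1.80, 1.96, 2.13 and 2.20 in controls 1 to 5 and 2.06, 2.16, 2.26, 2.19 and 2.46 in unloaded animals 1 to 5. The groups overlapped through controls 4 and 5, and the difference was 0.23 (SE 0.11, limma adjusted p = 0.313). All 3 Srxn1 probes were positive, at 0.23, 0.26 and 0.27, with a limma adjusted p between 0.304 and 0.313. The sign turned with slide as a fixed block (-0.04, SE 0.19).

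Glrx2, the glutaredoxin of mitochondria, measured 2.09, 2.09, 2.17, 1.98 and 2.40 in controls 1 to 5 and 1.82, 2.26, 2.20, 2.04 and 1.51 in unloaded animals 1 to 5. The groups overlapped and unloaded animal 5 was the lowest of all. Its difference was -0.18 (SE 0.14, limma adjusted p = 0.490), but -0.07 without unloaded animal 5. The other tested Glrx2 probe had a positive difference of 0.35 (limma adjusted p = 0.253) but was dimmer, with a control mean of -1.83 beside 2.15. The remaining 5 genes had a limma adjusted p between 0.584 and 0.851. Their differences were -0.08 for Txn1, cytosolic thioredoxin, -0.10 for Txn2, its mitochondrial counterpart, and -0.03 for Txnrd1, the cytosolic reductase. For Txnip, which binds and inhibits thioredoxin, the value was -0.14, or -0.01 without unloaded animal 5, and for Glrx, the cytosolic glutaredoxin, 0.06. The other Txnip probe, dimmer with a control mean of -1.07 beside 2.45, had a difference of 0.13.

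In glutathione metabolism the 2 subunits of the first and rate-limiting enzyme of glutathione synthesis had lower mean values in unloaded bone, and neither was called. Gclc, its catalytic subunit, measured 1.40, 1.38, 1.52, 1.27 and 1.43 in controls 1 to 5 and 1.44, 1.28, 0.80, 1.12 and 0.36 in unloaded animals 1 to 5. The controls lay close together, while the unloaded animals ranged from the level of the controls down to animal 5, far below all others. The means were 1.40 ± 0.09 and 1.00 ± 0.43 (SD, n = 5 each), a difference of -0.40 (SE 0.17, limma adjusted p = 0.288). Without unloaded animal 5 the difference was -0.24, and Gclc no longer had an unadjusted p below 0.05.

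Gclm, the modifier subunit, measured -0.38, -0.57, -0.14, -0.45 and -0.63 in controls 1 to 5 and -0.71, -0.71, -0.58, -0.53 and -0.84 in unloaded animals 1 to 5. The groups overlapped between -0.63 and -0.53. The difference was -0.24 (SE 0.11, limma adjusted p = 0.306), and -0.04 (SE 0.20) with slide as a fixed block, where that of Gclc was -0.25 (SE 0.29).

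Gstm1, a glutathione transferase of the mu class, measured 4.89, 5.09, 4.78, 5.13 and 5.41 in controls 1 to 5 and 5.25, 5.08, 5.42, 5.08 and 5.74 in unloaded animals 1 to 5. The overlap was wide, and the difference of 0.25 (SE 0.15, limma adjusted p = 0.379) turned to -0.16 with slide as a fixed block. The other Gstm1 probe, dimmer with a control mean of 0.68 beside 5.06, had a difference of -0.03, and the mean of both probes 0.11. The Gstm genes are near-identical copies of each other in part, so their probes may share signal. The other 5 genes had differences of 0.06 for Gss, glutathione synthetase, and -0.10 for Gsr, the reductase that recycles glutathione, with all 3 Gsr probes negative. For the transferases the values were 0.18 for Gsta4, 0.07 for Gstm2 and 0.07 for Gstp1. Over the 8 genes the median was 0.06.

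Both sides of the Nrf2 switch had lower mean values in unloaded bone, and neither was called. Nfe2l2 measured 3.22, 3.18, 3.19, 3.14 and 3.14 in controls 1 to 5 and 2.98, 3.09, 2.94, 2.88 and 2.60 in unloaded animals 1 to 5. All 5 unloaded animals lay below all 5 controls, whose SD of 0.03 was the narrowest among the 39 genes. The means of 3.17 ± 0.03 and 2.90 ± 0.18 (SD, n = 5 each) gave a difference of -0.28 (SE 0.10, limma adjusted p = 0.258). It was -0.20 without unloaded animal 5 and -0.14 (SE 0.17) with slide as a fixed block. Of the other 3 Nfe2l2 probes, those with differences of -0.39 (limma adjusted p = 0.254) and -0.14 ran the same way and 1 had a positive value of 0.16 (limma adjusted p = 0.533). The control means of these 3 were 2.15, -0.90 and -2.20 in that order.

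Keap1 measured 2.23, 2.34, 2.33, 2.19 and 2.35 in controls 1 to 5 and 2.15, 2.38, 1.92, 2.21 and 1.42 in unloaded animals 1 to 5. Unloaded animals 1, 2 and 4 lay near or within the range of the controls, and animals 3 and 5 lay below it. The difference was -0.27 (SE 0.15, limma adjusted p = 0.369), and -0.12 without unloaded animal 5. G6pdx, the enzyme that makes NADPH from glucose 6-phosphate, measured 3.42, 3.67, 3.69, 3.28 and 3.64 in controls 1 to 5 and 3.35, 3.48, 3.36, 3.50 and 3.00 in unloaded animals 1 to 5. The overlap was wide, and its difference of -0.20 (SE 0.12, limma adjusted p = 0.387) was -0.12 without unloaded animal 5. Nqo1, a quinone reductase much used as a readout of Nrf2, had a difference of 0.11 (SE 0.14, limma adjusted p = 0.683).

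**Figure D4:**
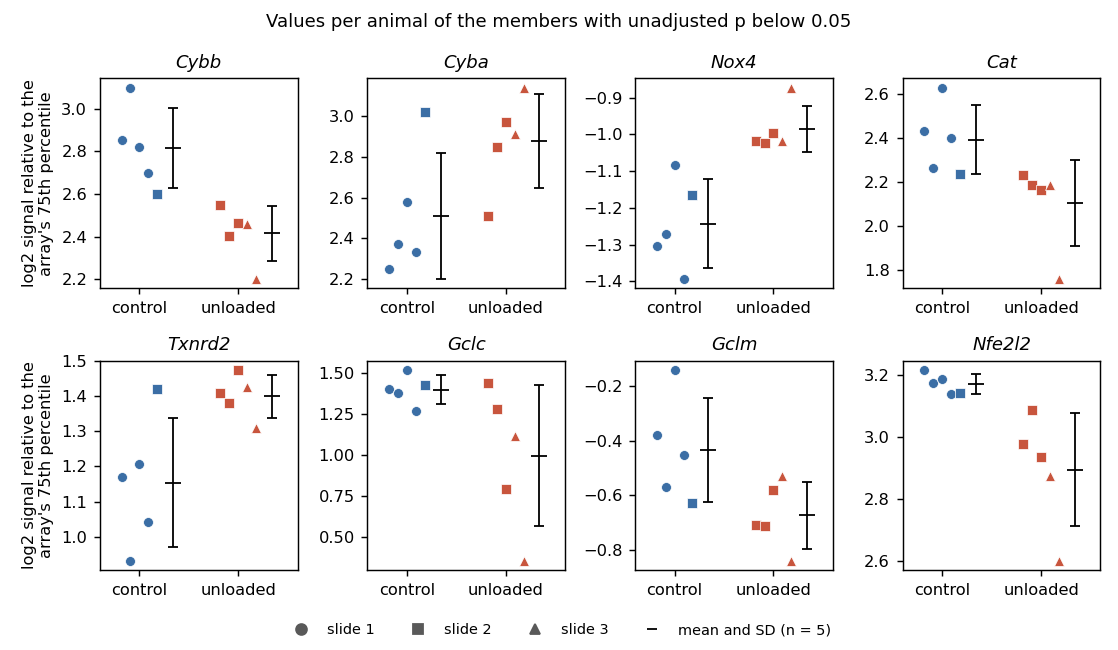
Log2 signal per animal (vertical axes, relative to the array's 75th percentile) of the 8 genes with an unadjusted limma p below 0.05, with marker shapes for the slide and bars for the group mean and SD (n = 5). The groups do not overlap for Cybb, Nox4, Cat and Nfe2l2. Control 5, the blue square on slide 2, is the control nearest to the unloaded animals for Cybb and Cat. It lies among them for Cyba, Txnrd2 and Gclm. Of the slide 1 controls, control 3 also lies among them for Cyba and control 2 for Gclm.

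The 13 genes known as Nrf2-type targets showed no shared direction. Of these, 6 had positive and 7 negative differences, from -0.40 for Gclc to 0.25 for Gstm1, with a median of -0.03, and 2 of them, Gclc and Gclm, had an unadjusted p below 0.05, both in the lower direction (15.4% beside 5.92% of all probes), with 0 in the higher direction beside 10.2%. Averaged over the 13 genes, the signal was 2.16 ± 0.08 in control and 2.13 ± 0.02 in unloaded bone (SD, n = 5 each). Set side by side, the medians were 0.06 for the 4 phagocyte oxidase genes, -0.03 for the Nrf2-type targets and -0.01 for the 11 peroxidases, which share Prdx1 with the targets. These are medians over genes, which are not replicates, beside 0.07 over all tested probes. Their order and signs depended on the setting. With median scaling they were -0.03, -0.13 and -0.11, and with slide as a fixed block -0.16, -0.09 and -0.12. With quantile normalization they were 0.09, 0.02 and -0.02.

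Nrf2 binds DNA at the antioxidant response element, whose core letters are TGACNNNGC. RefSeq start site windows of assembly GRCm38.p6, from 250 bases before to 50 after a start, were at hand for 33 of the 39 genes. The core was found on either strand in 7 of these 33 genes (21.2%) and in 14% of 27025 genes, or 12.4% of 32851 windows. Of the Nrf2-type targets 5 of 10 held it: G6pdx, Gclm, Prdx1, Srxn1 and Txnrd1. The other 2 genes were Nfe2l2 itself and Sod1, and none of the 3 phagocyte oxidase genes with a window held it. The stretches around it are shown for the target genes whose core lies before the start, and for Nfe2l2, because these are the genes whose values are compared above; each is written along the gene's own strand and the capitals mark the core or its reverse complement.
Gclm (chr3:122245407-122245447, plus strand, 134 bases before the start): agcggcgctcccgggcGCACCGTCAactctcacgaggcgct
Prdx1 (chr4:116685450-116685490, plus strand, 133 bases before): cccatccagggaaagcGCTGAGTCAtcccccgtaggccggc
Txnrd1 (chr10:82859098-82859138, plus strand, 92 bases before 1 of its starts): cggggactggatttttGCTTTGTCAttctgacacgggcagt
G6pdx (chrX:74428913-74428953, minus strand, 57 bases before): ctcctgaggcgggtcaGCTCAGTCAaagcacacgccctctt
Nfe2l2 (chr2:75704879-75704913, minus strand, 240 bases before): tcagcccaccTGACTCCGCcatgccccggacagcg

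Genes with these letters lay on both sides of 0, from -0.28 for Nfe2l2 and -0.24 for Gclm to 0.16 for Sod1 and 0.23 for Srxn1. A match of letters is a description and not a bound site. The core letters of PU.1, the transcription factor of myeloid cells, GAGGAA, were found on either strand in 7 of the 33 genes (21.2%) and in 31.3% of all genes. Of the 3 phagocyte oxidase genes with a window, Cybb alone held it.

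The 6 genes of mitochondrial enzymes, Sod2, Prdx3, Prdx5, Txn2, Txnrd2 and Glrx2, had a median difference of -0.05, with 2 positive and 4 negative. The 5 selenoprotein genes, Gpx1, Gpx3, Gpx4, Txnrd1 and Txnrd2, had a median of 0.10, with 4 positive and 1 negative. Over the alternatives these medians ran from -0.19 to 0.0071 and from -0.09 to 0.22.

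A further 58 redox genes outside the 39 were tested, and limma called 0 of them, with a smallest adjusted p of 0.251. At an unadjusted p below 0.05 there were 2 higher (3.45% beside 10.2% of all probes) and 0 lower (beside 5.92%), so fewer than over all probes in both directions. Their median difference was -0.01, with 26 positive and 32 negative. Chac1, which degrades glutathione, had the smallest p of these. Its signals were -0.77, -0.64, -0.62, -0.73 and -0.71 in controls 1 to 5 and 0.21, -0.44, -0.36, -0.65 and -0.12 in unloaded animals 1 to 5. All controls lay close together, and 4 of the unloaded animals lay above all of them. The difference was 0.42 (SE 0.14, limma adjusted p = 0.251). Nox3 and Nox1, oxidases of the inner ear and of the colon, had differences of 0.35 (limma adjusted p = 0.271) and 0.27 (limma adjusted p = 0.326). Both probes were dim, with control means of -2.99 for Nox3 and -1.06 for Nox1. Osgin1, another gene under Nrf2, had -0.17 (limma adjusted p = 0.331), and Hmox1, the haem oxygenase that Nrf2 induces, had -0.18 (limma adjusted p = 0.476).

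Slide could not be separated from group. With slide as a fixed block the comparison rests on 1 control and 3 unloaded animals of slide 2, and 14 of the 39 genes then had the opposite sign. Of the 8 genes with an unadjusted p below 0.05 over all arrays, 0 kept it in that fit. The signs of Cybb, Nox4, Cat, Gclc, Gclm and Nfe2l2 held and that of Cyba did not, while Txnrd2 lay at 0.00053.

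**Figure D5:**
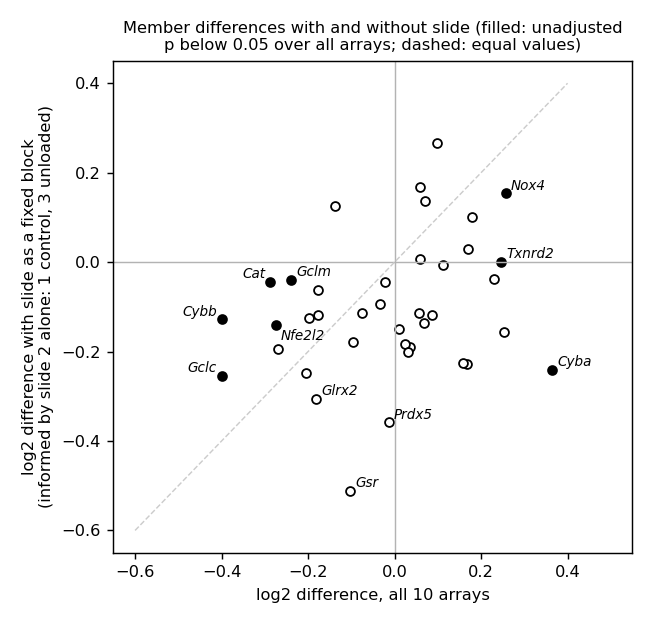
Log2 difference of each of the 39 genes with slide as a fixed block (vertical axis) against that over all 10 arrays (horizontal axis); filled points have an unadjusted p below 0.05 over all arrays and the dashed line marks equal values. Points in the upper left and lower right, 14 in all, have opposite signs, with Cyba at 0.36 and -0.24 among them.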

How the data were processed

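Labelled cRNA of 10 femurs was read on Agilent 1-colour arrays. Per the file headers, the authors' spot intensity values came from Agilent Feature Extraction 9.1.3.1 (protocol GE1-v5_91_0806), background-corrected by a method given only as a code and not scaled between arrays. The deposited series matrix held the same intensity values on a linear scale (ratios of 0.995 to 1.005 to the processed signal), uncentred and, with 1 colour, without direction; the median of its column was, in order of animal number, 335, 332, 303, 261 and 306 in the control group, and 315, 269, 253, 311 and 291 in the unloaded group.

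From these, log2 of the processed signal minus each array's 75th percentile was computed, spots of a probe were averaged, and 97 outlier spots of the gene probes were left out. The 75th percentile lay between 637 and 903 intensity units, and the share of gene spots well above background was 89.8% to 95.5%. A probe needed to be well above background on at least 4 of 5 arrays in either group, with values on at least 3 arrays in both, to be tested with limma 3.58.1 in R 4.3.3 (lmFit, eBayes, two-sided, Benjamini-Hochberg), after a test on simulated data. Probes were named through RefSeq (GRCm38.p6). Values per animal are given for the 4 phagocyte oxidase genes, Nfe2l2, Keap1 and up to 3 genes of smallest p in each other role group; of the other redox genes, the 4 of smallest p and Rac2, Mpo and Hmox1 are named, and 1 gene that the rule takes is left out. Members, role groups and lists were chosen with earlier results of these data known. The number of arrays limits the precision. Alternatives covered background, scaling, dim probes, the series matrix, slide, replicate number, body weight, array weights, choice of probe and each array left out. Figures were drawn with matplotlib 3.10.9.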

Additional observations from a re-analysis of the deposited data

Results flagged for a closer look

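In 6 of the 78 sets of 5 animals (39 genes, 2 groups) 1 animal lay far from the others by Dixon's ratio (critical value 0.71); chance alone marks about 1 set in 20. Unloaded animal 5, the array that stood apart, accounted for 3 of them. It was lowest for Cat, at 1.76 with the nearest animal at 2.16. It was highest for Nox4, at -0.873 with the nearest at -0.997, and for Sod3, at -1.63 with the nearest at -1.85. Control 4 was lowest for Gss, at -0.33 with the nearest control at -0.0646. Unloaded animal 2 was highest for Gstp1, at 4.63 with the nearest at 4.35. Unloaded animal 4 was lowest for Txnrd1, at 2.47 with the nearest at 2.69.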

How the results depend on the processing

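Under all 22 alternatives limma called 0 of the 39 genes, with adjusted p from 0.116 (Cybb) to 1. No gene changed sign with normexp background, slide as a random block (correlation -0.031) or array weights. Other filters on dim probes cannot move a gene's difference, and the series matrix held nearly the same values, so kept signs there say nothing about stability. In every alternative 17 of the 39 genes kept their sign, among them 7 of the 8 with an unadjusted p below 0.05, all but Cyba. The filters and the replicate block add nothing to this count, since they cannot turn a sign. Txnrd2 is counted as kept although it lay at 0.00053 (SE 0.17) with slide as a fixed block. Genes without overlap between groups numbered 0 with normexp and 1 with quantile normalization. With slide as a fixed block 3 of all probes were called and 0 of the 39 genes had an unadjusted p below 0.05; with body weight as a covariate these counts were 0 and 3 (Cybb, Nfe2l2, Nox4). Leaving out each animal gave 0 to 2 probes called and 4 to 9 of the 39 genes at an unadjusted p below 0.05, the fewest without unloaded animal 5 (Cybb, Nfe2l2, Nox4, Txnrd2) and 5 without control 1 or unloaded animal 3.

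Scaling by the array median moved the median of all probes from 0.07 to -0.03 and gave role medians of -0.0313 (glutathione and transferases) and -0.13 (Nrf2-type targets). It turned the signs of Glrx (-0.0391), Gpx1 (-0.0858), Gpx7 (-0.0368), Gss (-0.0363), Gstm2 (-0.0238), Gstp1 (-0.0262), Ncf1 (-0.00917), Ncf4 (-0.059), Prdx2 (-0.0711) and Sod2 (-0.0634). Quantile normalization turned Gpx1 (-0.0868), Prdx2 (-0.0229), Prdx4 (0.0448), Prdx5 (0.0389) and Txnrd1 (0.0211).

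Slide as a fixed block gave role medians of -0.159 (phagocyte oxidase), -0.0962 (superoxide and peroxide enzymes), -0.0876 (glutathione and transferases) and -0.0946 (Nrf2-type targets). It turned Cyba (-0.241), Glrx (-0.113), Gpx1 (-0.149), Gpx4 (-0.228), Gstm1 (-0.157), Gstp1 (-0.136), Ncf1 (-0.119), Ncf4 (-0.189), Nqo1 (-0.00553), Prdx2 (-0.182), Sod1 (-0.225), Sod2 (-0.2), Srxn1 (-0.0383) and Txnip (0.126), and Cyba minus Cybb within slide 2 was -0.113. Body weight turned Prdx4 (0.0696), Prdx5 (0.0747), Sod2 (-0.00848) and Txnip (0.0513). The mean of all tested probes turned Glrx2 (0.0823), Prdx4 (0.0788), Prdx6 (0.0875) and Sod1 (-0.00758).

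With single animals left out the differences ran from -0.0436 to 0.158 for Glrx, -0.0767 to 0.0711 for Gpx1, -0.0331 to 0.154 for Gpx7, -0.00732 to 0.145 for Gss and -0.0237 to 0.0913 for Ncf4. They ran from -0.0567 to 0.124 for Prdx2, -0.107 to 0.0662 for Prdx4, -0.144 to 0.0887 for Prdx5, -0.0507 to 0.0842 for Sod2 and -0.0531 to 0.019 for Txnrd1. Role medians ran from 0.00426 to 0.0752 for glutathione and transferases, -0.00165 to 0.156 for superoxide and peroxide enzymes, 0.0089 to 0.11 for the phagocyte oxidase, -0.18 to -0.0128 for peroxiredoxins and -0.0531 to 0.019 for Nrf2-type targets. Over all alternatives the highest median was 0.0326 for peroxiredoxins and 0.0121 for the thioredoxin system, both with the mean of all tested probes. The causes of these moves were not tested.

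Replicate numbers did not pair the animals: deviations of same-numbered animals correlated at -0.049, 0.18, -0.11, -0.14 and 0.073, and 1 of 10 animals correlated best with its own number. With the replicate block 8 genes had an unadjusted limma p below 0.05. Every number held a control and an unloaded array, so this block could not move a gene's difference or its sign.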
